A study of Homo sapiens with 20 samples.

Results

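The comparison was between 5 libraries labelled as clearing heat and removing dampness (heat-clearing) and 5 labelled as activating blood and removing stasis (blood-activating), 10 of the 20 libraries of the series, grouped by the treatment their labels give. The cells are SW1990, an established human pancreatic adenocarcinoma line, and the series describes a mouse model of pancreatic cancer treated according to principles of traditional Chinese medicine. The sources used here name no herb, dose, duration, mouse strain or age, no site of the tumour and no untreated sample, so both groups are treated and each difference sets one treatment against another. They also do not state whether libraries of a group come from different mice, and p-values then measure only the spread between these libraries.

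Pancreatic ductal adenocarcinoma cells keep an epithelial programme of keratins and adhesion proteins and often switch on inflammatory, interferon and squamous genes. Such programmes are read here as RNA levels, from libraries made after removal of ribosomal RNA, so that structural RNAs of the cell are counted as well as messenger RNAs. One of them, RN7SK, is the scaffold of the complex that holds the elongation kinase P-TEFb inactive. RN7SK took over 5% of all counts in 5 of the 10 libraries, and these are called RN7SK-high. They are heat-clearing libraries 1 and 2 and blood-activating libraries 1, 8 and 9. Library titles end in a letter, b or C, whose meaning is not given in the sources used here. Blood-activating libraries 1, 8 and 9 have b, and libraries 4 and 6 have C. In that group RN7SK state and title letter therefore cannot be told apart. Under heat-clearing both letters occur in either state.

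Total counts ran from 89988289 to 134963074 in the heat-clearing libraries and from 90365565 to 110489122 in the blood-activating libraries. The 12 markers of pancreatic epithelial tumour cells, among them EPCAM and several keratins, were all tested. Their summed level was 5041 to 7382 CPM (counts per 1e6 counts) under heat-clearing and 5058 to 7030 CPM under blood-activating treatment. Of 19 properties of a library, which included 12 summed marker lists, none differed between the groups after adjustment. The smallest p was that of the myeloid sum (exact permutation test, two-sided p = 0.0952, adjusted p = 0.867, where 5 against 5 libraries allow a smallest p of 0.00794). Markers of pancreatic acinar cells, which make digestive enzymes, summed to 7.96 to 424 CPM under heat-clearing and 27.7 to 1056 CPM under blood-activating treatment (exact permutation test, p = 0.508). In each group 1 library stood apart in that sum, heat-clearing library 3 at 424 CPM and blood-activating library 6 at 1056 CPM.

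No gene passed the test between heat-clearing and blood-activating tumours. Of 24790 rows tested with edgeR's quasi-likelihood test and a term for RN7SK-high libraries, 0 were higher (0%) and 0 were lower (0%) at an adjusted p under 0.05, and every adjusted p was 1. At an unadjusted p under 0.05 there were 545 rows (2.2%), of which 233 had a higher estimate under heat-clearing (0.94%) and 312 a lower one (1.26%). Without the RN7SK term the counts were 0 and 460 (1.86%). DESeq2 with the same terms called 6 rows (0.0243%) and limma voom 2 (0.00807%), none of them among the genes described here by their values. The same fit gave 1119 to 1428 rows at that unadjusted level in the other 5 pairs of treatments, again with 0 calls. The groups did not overlap in 121 rows (0.488%). All heat-clearing libraries were above all blood-activating ones in 45 of those (0.182%) and below them in 76 (0.307%). In the 14253 rows with a mean log2 CPM of 0 or more, 421 had an unadjusted p under 0.05 (2.95%) and 40 did not overlap (0.281%).

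The precision differed with the level of the gene. Among the 14253 rows with a mean log2 CPM of 0 or more, the median standard error (SE) of the log2 fold change was 0.17, and the 95% interval lay within ±1, that is within a 2-fold change, for 12365 rows (86.8%). In the 4800 rows with a mean log2 CPM of 5 or more that share was 98.6%. An estimate beyond ±1 was seen in 81 of the 14253 rows and in 0 of the 4800. Over all rows tested, low ones included, the median SE was 0.36.

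The RN7SK state went with much of the profile. In the same fit, 2612 genes were higher and 2401 lower in RN7SK-high than in RN7SK-low libraries (20.2% of rows at an adjusted p under 0.05), although RN7SK itself chose those libraries and RNAs that go with it are no independent finding. Over the 14253 better-expressed rows, 39.6% of the squared distances among the 10 libraries lay between the RN7SK states and 8.56% between the treatments. Any split of these libraries into equal groups carries some share, with a mean of 11.1% over all 252 such splits. The first principal component carried 41.4% of the variance and separated the states.

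**Figure D1:**
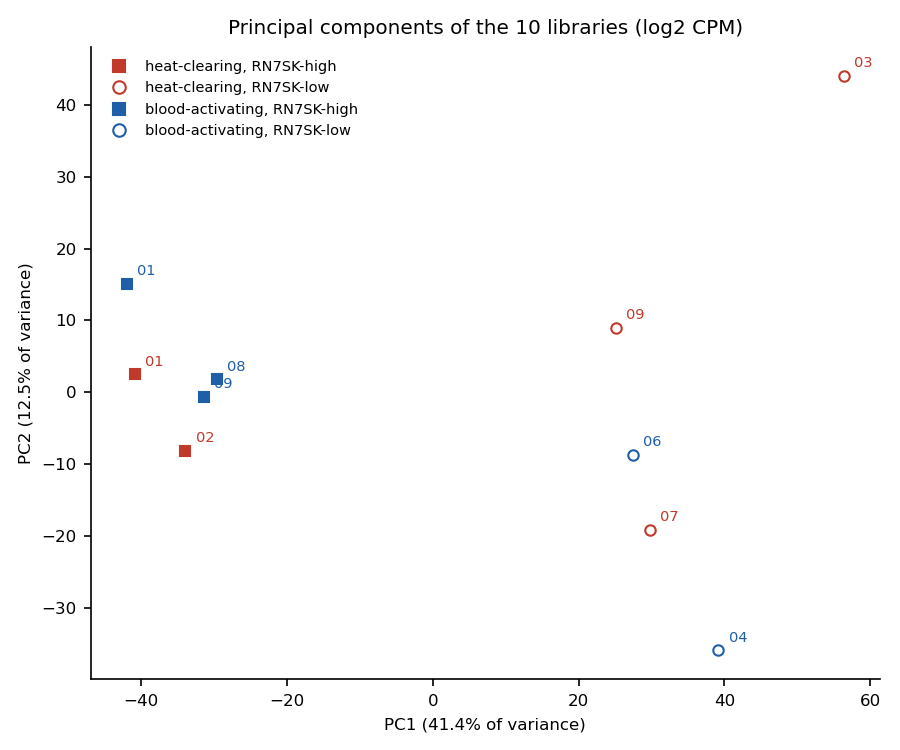
First and second principal component of log2 CPM for the 10 libraries, with red symbols for heat-clearing and blue for blood-activating libraries, filled squares for RN7SK-high and open circles for RN7SK-low libraries, and replicate numbers beside them. The 5 RN7SK-high libraries lie to the left and the 5 RN7SK-low ones to the right on the first component (41.4% of variance), and red and blue symbols are mixed within each side.

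The treatment difference was also taken within each state. Within the RN7SK-low libraries, 3 heat-clearing against 2 blood-activating, 0 rows were called (0%) and 1057 had an unadjusted p under 0.05 (4.26%). Within the RN7SK-high libraries, 2 against 3, the counts were 0 (0%) and 699 (2.82%). The difference between these treatment effects was called in 0 rows (0%), with 1036 at the unadjusted level (4.18%). DESeq2 called 39 rows within RN7SK-low libraries (0.158%), 16 within RN7SK-high libraries (0.0648%) and 29 for their difference (0.117%). The treatment difference had the same sign in both states in 47.4% of the 24790 rows. Across the 14253 better-expressed genes, which are not independent replicates, the treatment difference had the same sign in both states for 45.4%, with a Pearson r of -0.05 and a Spearman rho of -0.11. The RN7SK difference, taken separately within each treatment, had the same sign for 77.6% of these genes (r = 0.67, rho = 0.71). In both treatments the states were set by RN7SK in these same libraries. Agreement of RNAs that go with it is thus no independent finding and is not comparable with that of the treatment difference.

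The 12 genes of smallest p with a higher estimate under heat-clearing included MSH6, RECQL, CGAS and KRT19. They are given as values, since none passed. Values are CPM normalised by TMM, in the order of heat-clearing libraries 1, 2, 3, 7 and 9 and of blood-activating libraries 1, 4, 6, 8 and 9. Fold changes are log2 estimates, heat-clearing minus blood-activating, from the fit with the RN7SK term.

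MSH6, on chromosome 2 (47695530 to 47810101, plus strand, GRCh38), encodes a protein of DNA mismatch repair. MSH6 was at 83.7, 76.7, 87.3, 68.1 and 67.4 CPM under heat-clearing and at 48.0, 58.9, 58.0, 57.5 and 48.4 CPM under blood-activating treatment. All 5 heat-clearing libraries lay above all 5 others. The log2 fold change was 0.50 (SE 0.13, 95% interval 0.22 to 0.77, unadjusted p = 0.00127, adjusted p = 1), with 0.35 within RN7SK-low and 0.64 within RN7SK-high libraries. FBXO11 overlaps this span on the other strand and had an estimate of -0.21 (SE 0.08). Whether the authors' counting used strand is not given in the sources used here.

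CGAS, the enzyme that senses DNA in the cytosol (chromosome 6, 73413515 to 73452276, minus strand), was at 22.1, 18.5, 22.6, 21.8 and 21.2 CPM against 16.2, 13.7, 15.4, 15.1 and 16.6 CPM. Here too no blood-activating library reached the lowest heat-clearing one. The estimate was 0.46 (SE 0.14, interval 0.17 to 0.76, unadjusted p = 0.00359), with 0.59 and 0.34 within RN7SK-low and RN7SK-high libraries. DDX43, on the opposite strand of that span, had an estimate of -0.04 (SE 0.26).

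KRT19, the keratin of ductal epithelium on chromosome 17, was the most abundant of these genes by counts, at 1148, 1012, 822, 902 and 1065 CPM against 766, 747, 888, 852 and 873 CPM. The groups overlapped in heat-clearing library 3. The estimate was 0.28 (SE 0.08, unadjusted p = 0.00263). RECQL, a helicase of the RecQ family, was at 80.7, 63.3, 107, 103 and 86.9 CPM against 57.2, 76.1, 78.6, 55.3 and 64.7 CPM, with an estimate of 0.32 (SE 0.09). In both groups the lower RECQL values were those of RN7SK-high libraries, and the state estimate was -0.42 (edgeR, adjusted p = 0.00156). The states were chosen by RN7SK in these same libraries. PYROXD1, on the opposite strand, had a treatment estimate of -0.36 (SE 0.17).

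HEXIM1, the protein that inhibits P-TEFb when bound to RN7SK, was at 27.5, 23.0, 45.7, 47.9 and 49.6 CPM against 20.04, 37.0, 36.5, 23.9 and 24.1 CPM. The 3 RN7SK-low heat-clearing values lay above both RN7SK-low blood-activating ones, and the RN7SK-high values of the groups overlapped. The treatment estimate was 0.27 (SE 0.09, unadjusted p = 0.00579) and the state estimate -0.81 (edgeR, adjusted p = 6.29e-07). Since RN7SK in these libraries made the states, that state estimate is no independent finding about HEXIM1. RN7SK RNA had a treatment estimate of -0.18 (SE 0.14) in the same fit. That fit holds a term made from RN7SK itself, so the estimate is no independent measure of its level. Its mean share of all counts was 3.49% under heat-clearing and 4.65% under blood-activating treatment (exact permutation test, p = 0.341). The other genes at the top were PTTG1IP, the phosphatase scaffold PPP2R1B, the zinc exporter SLC30A1, the proteasome assembly factor POMP, the nucleolar RRP1B, the elongation cofactor EAF1 and TESMIN. Their estimates ran from 0.29 for PTTG1IP and EAF1 to 0.65 for TESMIN, all with overlapping groups. When edgeR was run without the RN7SK term, the unadjusted p was 0.0889 for PTTG1IP and 0.152 for POMP. It stayed under 0.05 for the others of these genes.

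**Figure D2:**
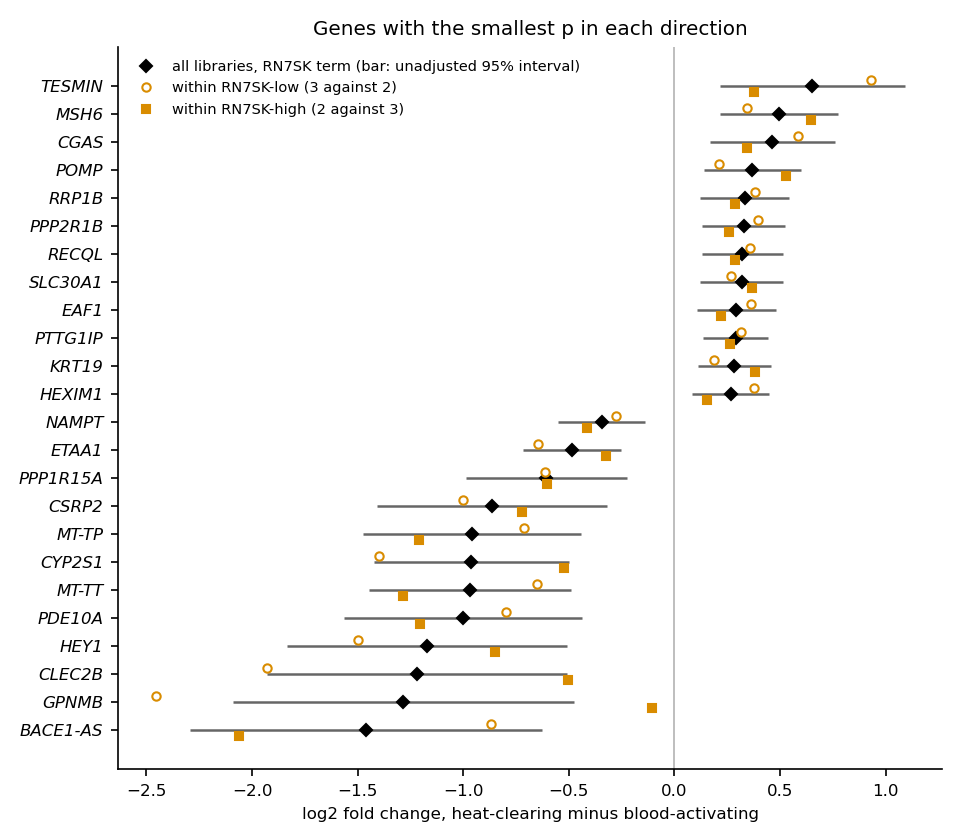
Log2 fold changes, heat-clearing minus blood-activating, of the 12 genes with the smallest p in each direction; black diamonds with unadjusted 95% intervals are from all libraries with the RN7SK term, open circles from RN7SK-low and filled squares from RN7SK-high libraries alone. The intervals of these chosen genes miss 0 while every adjusted p was 1, and GPNMB has the widest gap between states (-2.46 and -0.11).

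The 12 genes of smallest p with a lower estimate under heat-clearing are given in the same way. CYP2S1 encodes a cytochrome P450 known as a target of the aryl hydrocarbon receptor (chromosome 19, 41193049 to 41207539, plus strand). It was at 4.405, 6.51, 4.62, 4.38 and 4.65 CPM under heat-clearing and at 8.95, 15.5, 8.51, 5.87 and 8.72 CPM under blood-activating treatment. Heat-clearing library 2 overlapped blood-activating library 8, and all others were apart. The estimate was -0.96 (SE 0.22, interval -1.42 to -0.50, unadjusted p = 0.000264), with -1.40 within RN7SK-low and -0.52 within RN7SK-high libraries. Of the 14 tested genes of the aryl hydrocarbon receptor and xenobiotic list, 12 had lower estimates, with a median of -0.22 and 0 called. CYP2S1 was the only 1 of them with an unadjusted p under 0.05, where the share over all rows was 2.2%.

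ETAA1, an activator of the replication stress kinase ATR, had the smallest p of all rows (0.000263). It was at 13.6, 15.3, 21.6, 19.5 and 17.3 CPM against 17.3, 32.9, 28.1, 16.5 and 20.5 CPM, with an estimate of -0.49 (SE 0.11). Over all 10 libraries the groups overlapped, and within either state every heat-clearing value was below every blood-activating one. The estimate was -0.65 within RN7SK-low and -0.32 within RN7SK-high libraries.

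PDE10A, a phosphodiesterase that breaks down cyclic nucleotides (chromosome 6, 165327287 to 165988078, minus strand), was at 1.79, 2.60, 1.599, 3.18 and 3.24 CPM against 5.43, 3.44, 5.87, 4.88 and 4.88 CPM. All 5 heat-clearing libraries were below all 5 others. The estimate was -1.001 (SE 0.27, interval -1.57 to -0.44, unadjusted p = 0.00129). PDE10A and HEY1 are low genes, where a few CPM make up a 2-fold difference.

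HEY1, a transcriptional repressor induced by Notch, was at 1.03, 1.01, 0.992, 0.737 and 1.38 CPM against 1.056, 2.67, 3.20, 2.36 and 2.10 CPM. Only blood-activating library 1 lay among the heat-clearing values. Its estimate was -1.17 (SE 0.32, unadjusted p = 0.00131), and that of HES1, a related Notch target, was -0.31 (SE 0.13, unadjusted p = 0.0265). The 18 tested genes of the Notch list as a whole were split, with 9 higher and 9 lower estimates and a median of -0.02.

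PPP1R15A, the regulatory subunit that lets protein phosphatase 1 reverse the phosphorylation of eIF2-alpha, was at 27.4, 40.7, 19.6, 28.8 and 25.7 CPM against 38.2, 26.8, 48.8, 66.6 and 50.2 CPM. Blood-activating libraries 1 and 4 lay within the heat-clearing range. The estimate was -0.61 (SE 0.18, unadjusted p = 0.00325) and nearly equal in both states (-0.61 and -0.60). GPNMB, a glycoprotein of lysosomes and melanosomes, was at 2.14, 2.86, 0.789, 1.63 and 1.75 CPM against 1.99, 11.03, 4.27, 2.44 and 3.65 CPM. Its high values were those of blood-activating libraries 4 and 6, both RN7SK-low and both of title letter C. The difference between states had an unadjusted p of 0.00067 and an adjusted p of 1 in the edgeR interaction test. CLEC2B, a ligand of a natural killer cell receptor, had its highest values in the same libraries, 41.8 CPM in library 4 and 19.2 CPM in library 6, against 5.59 to 8.76 CPM under heat-clearing.

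Among the other leading genes with lower estimates, NAMPT, the enzyme that recycles nicotinamide into NAD, had -0.34 (SE 0.10), CSRP2 had -0.86 (SE 0.26) and BACE1-AS had -1.46 (SE 0.40). Their unadjusted p in edgeR without the RN7SK term was 0.0934, 0.0783 and 0.00906, in that order. BACE1-AS is an antisense RNA of BACE1, whose own estimate was 0.19 (SE 0.14). Without a stated strand setting their reads cannot be told apart.

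A pair of transfer RNA genes of the mitochondrial genome, MT-TT for threonine and MT-TP for proline, were among the 12 lowest-p genes with lower estimates. They lie 2 bases apart on opposite strands of the mitochondrial chromosome (M:15888-15953, plus, and M:15956-16023, minus, GRCh38). Their sequences are shown because neighbouring genes of one polycistronic genome were both among the leading genes, with the anticodon (positions 32 to 34 from the 5′ end) in capitals, as in GENCODE release 29.
MT-TT: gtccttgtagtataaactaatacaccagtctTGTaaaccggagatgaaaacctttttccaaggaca
MT-TP: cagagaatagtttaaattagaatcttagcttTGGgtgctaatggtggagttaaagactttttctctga

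MT-TT was at 5.14, 5.52, 18.1, 15.4 and 14.8 CPM under heat-clearing and at 9.81, 26.3, 24.3, 13.2 and 16.0 CPM under blood-activating treatment. Within each state every heat-clearing library was below every blood-activating one, while over all 10 the groups overlapped. The estimate was -0.97 (SE 0.23, unadjusted p = 0.000377), and -0.60 without the RN7SK term. MT-TP was at 5.94, 5.34, 27.6, 16.5 and 22.3 CPM against 9.62, 34.6, 37.9, 14.7 and 14.7 CPM. Its estimate was -0.96 (SE 0.25), and -0.52 without the RN7SK term. In the edgeR fit without that term the unadjusted p was 0.0991 for MT-TT and 0.261 for MT-TP. MT-CYB, the messenger RNA that ends where MT-TT begins, had an estimate of -0.07 (SE 0.12).

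All 13 messenger RNAs of the mitochondrial genome, which encode subunits of the respiratory chain and ATP synthase, had lower estimates under heat-clearing, with a median of -0.25 against -0.001 over all rows, in the fit with the RN7SK term. Without that term the median was -0.13 and 9 of the 13 had lower estimates, with MT-CYB, MT-ND4L, MT-CO2 and MT-ATP8 on the other side of 0. None was called, and 6 had an unadjusted p under 0.05, where the share over all rows was 2.2%. The 13 are made from the same polycistronic genome and are not independent observations. MT-CO1 was at 24763, 31555, 40752, 48471 and 41873 CPM against 29452, 59295, 47124, 34602 and 38712 CPM. Its estimate was -0.28 (SE 0.12), that of MT-ND1 was -0.30 (SE 0.12) and that of MT-ND6 was -0.38 (SE 0.15). MT-ND6, the one messenger RNA of the light strand, was at 0.00 within RN7SK-low libraries and at -0.76 within RN7SK-high ones. The mitochondrial messenger share of all counts was 10.6% to 19.9% under heat-clearing and 12.9% to 22.3% under blood-activating treatment (exact permutation test, p = 0.778), and the groups overlapped within either state. The 30 nuclear genes of the respiratory chain had a median of -0.01, with -0.18 within RN7SK-low and 0.08 within RN7SK-high libraries.

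Interferon-stimulated genes had lower estimates in 29 of 32 tested members, with a median of -0.29 and 0 called, and 4 had an unadjusted p under 0.05, beside 2.2% of all rows. These genes are switched on through STAT and IRF factors and encode antiviral proteins. IFI44L was at 65.5, 70.2, 84.1, 103 and 87.3 CPM under heat-clearing and at 139, 178, 85.7, 53.6 and 86.9 CPM under blood-activating treatment. Blood-activating libraries 1 and 4 were high, and library 8 was the lowest of all 10. The estimate was -0.49 (SE 0.22, unadjusted p = 0.0403). DDX58, the RNA sensor RIG-I, had -0.42 (SE 0.18) and SAMD9 had -0.29 (SE 0.10), with DDX58 at 82.5 and 91.1 CPM in the same libraries 1 and 4 and at 34.4 to 57.0 CPM in the others. The mean of the list, relative to its mean over the 10 libraries, was 0.53 and 0.52 in blood-activating libraries 1 and 4 and -0.54 in library 8, while the heat-clearing libraries lay between -0.28 and 0.05.

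The start of IFI44L is shown as an example of the list, on build GRCh38.p14 from RefSeq (1:78620198-78620497, plus strand), with matches to GAAANNGAAA in capitals. That motif is a simple form of the interferon-stimulated response element, searched on both strands.
IFI44L promoter: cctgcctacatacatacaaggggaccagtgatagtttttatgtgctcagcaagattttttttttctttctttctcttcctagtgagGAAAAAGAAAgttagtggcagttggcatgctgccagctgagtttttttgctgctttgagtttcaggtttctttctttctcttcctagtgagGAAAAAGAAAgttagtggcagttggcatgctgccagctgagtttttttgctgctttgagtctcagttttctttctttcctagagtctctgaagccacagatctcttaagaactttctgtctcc
The window of 250 bases before to 50 after the start holds 2 matches. The motif was in 1255 of 35116 promoters of that length (3.57%) and in 20 of the 30 promoters that matched the list (66.7%). Those 30 belong to 23 genes of the list, and 16 of the 23 held a match. The matches describe the sequence and are not shown to be sites in these cells.

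Antigen presentation by MHC class I followed with 13 of 16 lower estimates, a median of -0.22 and 0 called. That median was -0.31 within RN7SK-low and -0.05 within RN7SK-high libraries. B2M, the light chain of all class I molecules, was at 433, 542, 509, 635 and 608 CPM against 882, 761, 589, 506 and 599 CPM. Its estimate was -0.33 (SE 0.14, unadjusted p = 0.0305), and blood-activating libraries 1 and 4 again held the highest values. HLA-B, a class I heavy chain, was at 256 CPM in blood-activating library 1 and at 45.4 to 131 CPM in the other 9. Reads of HLA-B can be shared with the near copies of its family.

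Cornified envelope genes, the proteins with which squamous epithelium hardens and defends its surface, had the lowest median of all 46 lists, -0.53, with 18 of 20 lower estimates and 0 called. The median was -0.55 within RN7SK-low and -0.26 within RN7SK-high libraries, and -0.10 with the replicate number as a block. S100A8, a calcium-binding alarmin, was at 15.2, 22.2, 12.6, 9.94 and 15.9 CPM under heat-clearing and at 48.7, 53.8, 21.5, 31.0 and 45.7 CPM under blood-activating treatment. Heat-clearing library 2 and blood-activating library 6 were the only ones to cross. The estimate was -1.36 (SE 0.43, interval -2.27 to -0.44, unadjusted p = 0.00627), with -1.55 and -1.16 within RN7SK-low and RN7SK-high libraries.

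PI3, the elastase inhibitor elafin, was at 119.9, 122, 79.6, 73.2 and 172 CPM against 210.3, 251, 164, 236 and 259.9 CPM. Its estimate was -0.95 (SE 0.35), and heat-clearing library 9 lay above blood-activating library 6. SPRR1A, a small proline-rich protein of the envelope, had -0.90 (SE 0.33), with -1.56 within RN7SK-low and -0.25 within RN7SK-high libraries. S100A8 also stands in the list of myeloid markers, whose sum was 78.6 to 194 CPM under heat-clearing and 118 to 203 CPM under blood-activating treatment. Of those 15 markers 9 stayed under 1 CPM in all 10 libraries, and the part of myeloid cells in the S100A8 values was not tested. In bulk samples fewer cells of a type and less RNA per cell cannot be told apart.

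**Figure D3:**
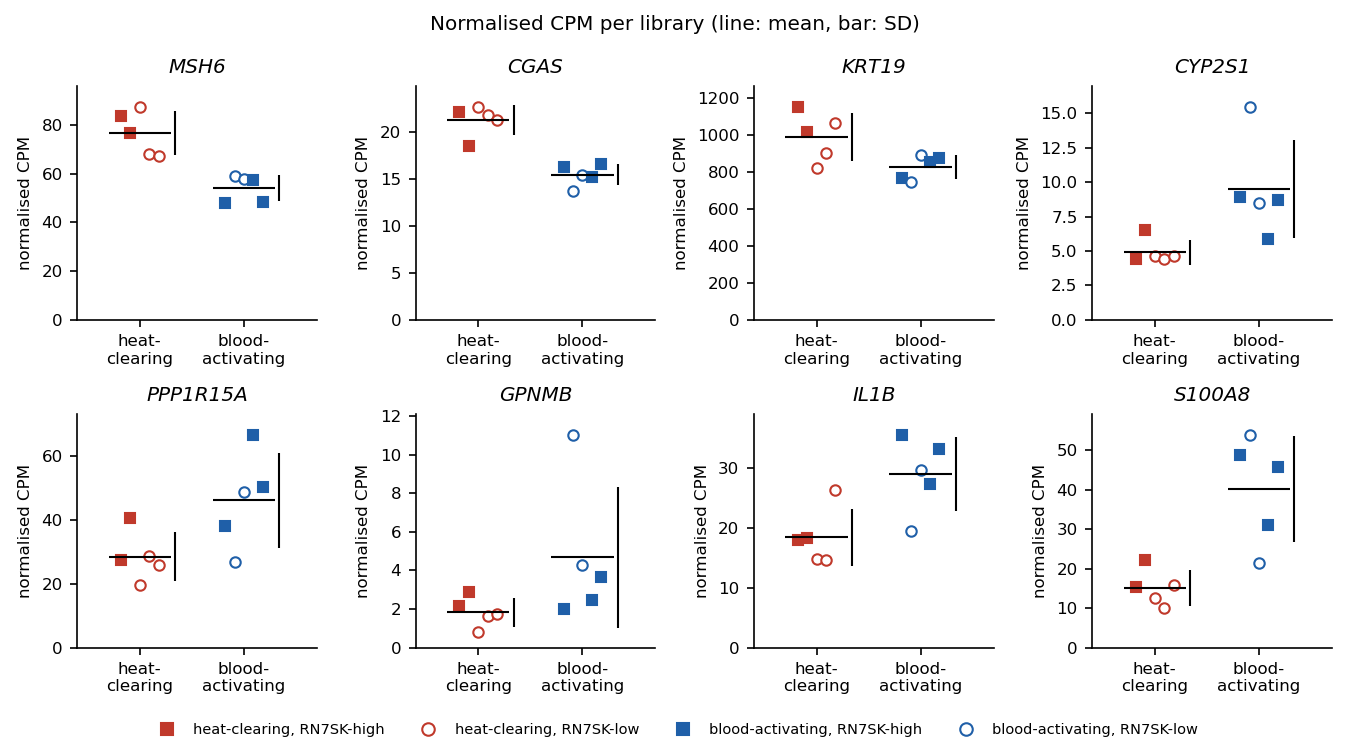
Normalised CPM of 8 genes in the 10 libraries, with red for heat-clearing and blue for blood-activating, filled squares for RN7SK-high and open circles for RN7SK-low, the mean as a line and the SD as a bar. MSH6 and CGAS do not overlap between groups, whereas the other 6 do, GPNMB and CYP2S1 each with 1 high blood-activating library.

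Inflammatory cytokines under NF-kB had lower estimates in 25 of 32 tested members, with a median of -0.21 and 0 called. IL1B, interleukin-1 beta, was at 18.0, 18.3, 14.8, 14.7 and 26.4 CPM against 35.6, 19.5, 29.7, 27.4 and 33.3 CPM. Blood-activating library 4 was the one that crossed into the heat-clearing range. The estimate was -0.61 (SE 0.21, unadjusted p = 0.00848). IL1A, interleukin-1 alpha, had the same estimate (-0.61, SE 0.22). CXCL8, the neutrophil chemokine interleukin-8, was at 16.5, 26.8, 25.8, 31.9 and 21.4 CPM against 57.7, 24.0, 49.97, 30.1 and 35.2 CPM, with -0.70 (SE 0.28). These were the 3 members with an unadjusted p under 0.05, where the share over all rows was 2.2%. The medians within RN7SK-low and RN7SK-high libraries were -0.23 and -0.21.

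Stress and antioxidant lists were mixed. The integrated stress response had 21 of 29 lower estimates, a median of -0.10 and 0 called. ATF4, its transcription factor, had -0.21 (SE 0.10), with -0.012 within RN7SK-low and -0.40 within RN7SK-high libraries. CEBPG, a partner of ATF4, was at 22.9, 23.9, 21.8, 21.9 and 23.7 CPM against 19.6, 19.3, 19.2, 19.4 and 19.2 CPM. Its groups did not overlap, and its estimate was 0.25 (SE 0.10, unadjusted p = 0.0233). NRF2 targets had 17 of 24 lower estimates with a median of -0.06, led by the aldo-keto reductases AKR1C1 (-0.67, SE 0.21) and AKR1C3 (-0.34, SE 0.12) and by PIR (-0.89, SE 0.38). AKR1C1 was at 20.2 and 20.8 CPM in blood-activating libraries 4 and 6 and at 4.795 to 12.2 CPM in the other 8. The AKR1C genes are close copies of one another, and shared reads could be split between them.

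The chaperones HSPA1A and HSPA1B, near-identical heat shock proteins of the HSP70 family, had estimates of 0.35 (SE 0.16) and 0.28 (SE 0.12), in a list with 13 of 18 higher estimates and a median of 0.05. HSPA1A ranged from 69.9 to 232 CPM under heat-clearing and from 64.6 to 141 CPM under blood-activating treatment, with the low values in the RN7SK-high libraries of either group. Hypoxia targets had 23 of 27 lower estimates, a median of -0.16 and no member at an unadjusted p under 0.05. HILPDA, a lipid droplet protein, had -0.47 (SE 0.24) and VEGFA, the endothelial growth factor, -0.29 (SE 0.19).

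**Figure D4:**
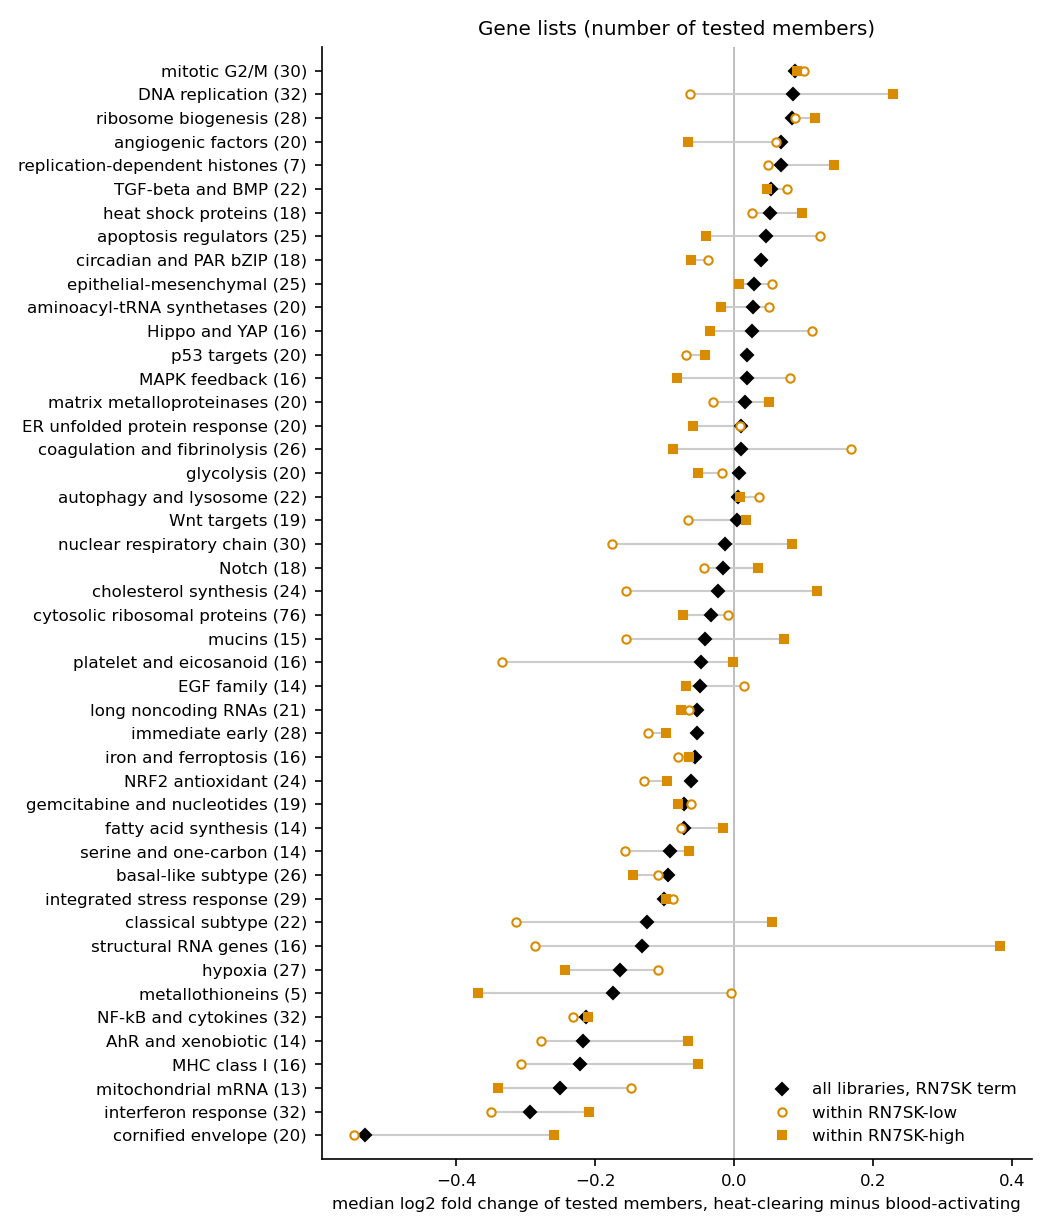
Median log2 fold change, heat-clearing minus blood-activating, of the tested members of 46 gene lists, with the number of members in brackets; black diamonds are from all libraries with the RN7SK term, open circles from RN7SK-low and filled squares from RN7SK-high libraries. Medians run from -0.53 for cornified envelope genes to 0.09 for mitotic genes. Several lists have opposite signs in the RN7SK-low and RN7SK-high libraries. Among them are DNA replication (-0.06 and 0.23), coagulation and fibrinolysis (0.17 and -0.09) and the nuclear respiratory chain (-0.18 and 0.08).

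Genes of blood clotting, vessel growth and platelet function form lists that bear on the names of the treatments. The 26 tested genes of coagulation and fibrinolysis were split, with 14 higher and 12 lower estimates, a median of 0.01 and 0 called. That median was 0.17 within RN7SK-low and -0.09 within RN7SK-high libraries. PLAT, the tissue-type plasminogen activator, was at 28.0, 58.8, 41.2, 73.6 and 41.3 CPM under heat-clearing and at 70.5, 94.8, 67.6, 49.8 and 47.3 CPM under blood-activating treatment. The ranges overlapped broadly, and the estimate was -0.50 (SE 0.19, unadjusted p = 0.0151). PLAU, the urokinase, had 0.28 (SE 0.15) and its receptor PLAUR 0.19 (SE 0.13).

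The 20 angiogenic factors had 11 higher and 9 lower estimates with a median of 0.07. PDGFA, a growth factor for stromal cells, was at 43.8, 29.6, 35.1, 28.7 and 30.1 CPM against 31.5, 16.2, 26.6, 28.7 and 30.1 CPM, with 0.42 (SE 0.15, unadjusted p = 0.0121). Its lowest value was that of blood-activating library 4. THBS1, the thrombospondin that binds platelets and matrix, had 0.27 (SE 0.21). Of 16 platelet and eicosanoid genes, 10 had lower estimates (median -0.05), and PTGES, a prostaglandin E synthase, had 0.31 (SE 0.12).

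Mitotic genes had 26 of 30 higher estimates with a median of 0.09, 0 called and none at an unadjusted p under 0.05. AURKA, a kinase of the spindle pole, was at 45.6 to 51.2 CPM under heat-clearing and at 30.3 to 50.2 CPM under blood-activating treatment, with an estimate of 0.18 (SE 0.13). Blood-activating library 8 had the lowest AURKA, BUB1 (42.0 CPM) and CDC20 (12.1 CPM) of the 10 libraries. DNA replication genes had 26 of 32 higher estimates with a median of 0.08, 0 called and 6 at an unadjusted p under 0.05 (2.2% over all rows). The direction of that median differed between the states, with -0.06 within RN7SK-low and 0.23 within RN7SK-high libraries, and it was 0.04 without the RN7SK term.

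MCM6, a subunit of the replicative helicase, was at 46.3, 49.8, 37.4, 39.2 and 40.2 CPM against 32.9, 40.9, 37.7, 28.6 and 36.7 CPM. The high values were those of heat-clearing libraries 1 and 2, both RN7SK-high. Its estimate was 0.27 (SE 0.12) over all libraries, -0.01 within RN7SK-low and 0.56 within RN7SK-high libraries. MCM10 had 0.37 (SE 0.14), with 0.11 and 0.64 in the states, while RFC2, a subunit of the clamp loader, had 0.41 (SE 0.16), with 0.72 and 0.10. Ribosome biogenesis genes had 21 of 28 higher estimates with a median of 0.08, among them RRP1B at 37.5, 31.4, 44.6, 39.1 and 39.7 CPM against 30.3, 31.5, 31.7, 26.8 and 27.6 CPM.

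Clock genes included NFIL3, a repressor of the PAR bZIP family's targets, at 9.36, 11.6, 11.04, 9.93 and 10.8 CPM under heat-clearing and 13.5, 14.0, 13.9, 16.6 and 14.1 CPM under blood-activating treatment. All 5 heat-clearing values were below all 5 others, and the estimate was -0.44 (SE 0.15, unadjusted p = 0.00778). PER1, a repressor of the circadian clock, was at 11.1, 7.38, 4.09, 5.97 and 5.03 CPM against 17.6, 5.25, 14.0, 9.34 and 17.3 CPM. Its estimate was -0.81 (SE 0.27, unadjusted p = 0.00631), with -0.94 and -0.68 in the states. CLOCK, the activator, had 0.16 (SE 0.07), and the list of 18 had a median of 0.04 with 10 higher and 8 lower estimates. The hour at which samples were taken is not given in the sources used here.

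**Figure D5:**
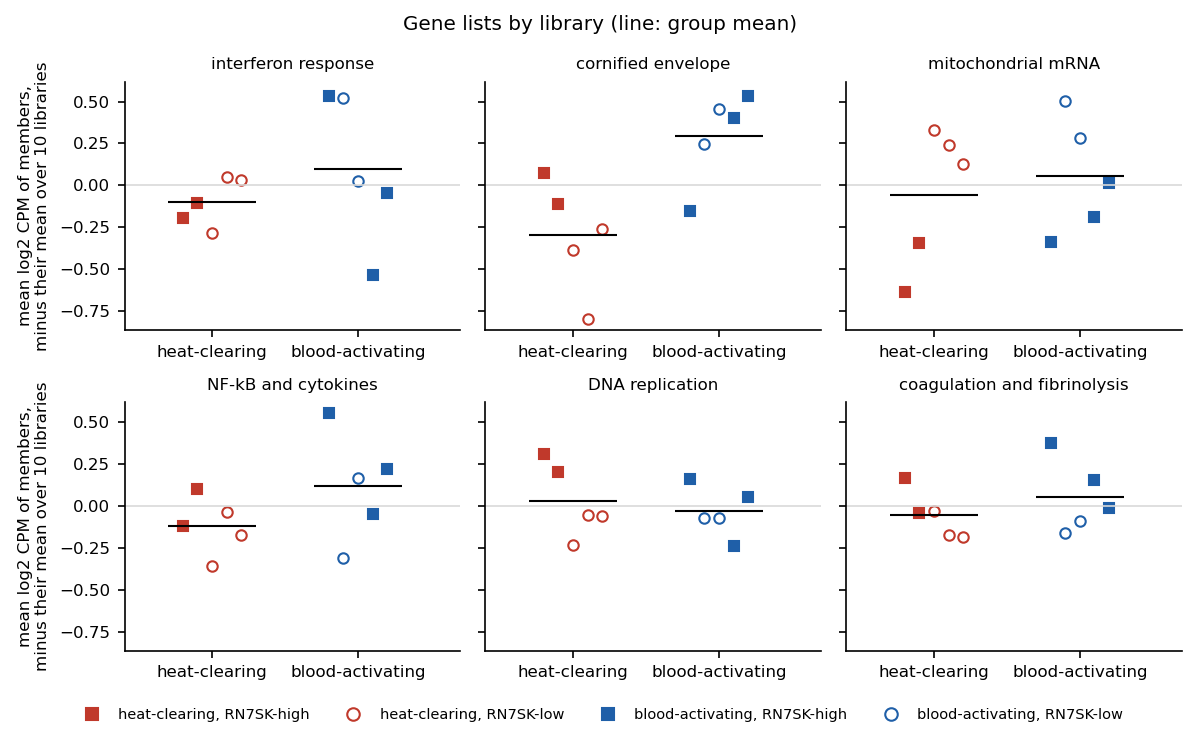
Mean log2 CPM of the tested members of 6 gene lists in each library, relative to the mean of the same genes over the 10 libraries, with red for heat-clearing, blue for blood-activating, filled squares for RN7SK-high, open circles for RN7SK-low and the group mean as a line. The groups overlap in every list, and mitochondrial messenger RNA is lower in the 5 RN7SK-high than in the 5 RN7SK-low libraries.

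Among other genes named from the lists, the death receptor FAS had -0.48 (SE 0.18), with 12.9 to 17.4 CPM under heat-clearing and 11.5 to 29.2 CPM under blood-activating treatment. BAX, a pore-forming promoter of apoptosis, had 0.33 (SE 0.13), and the p53 list that holds both had a median of 0.02. MMP7, a matrix-degrading protease, had -0.97 (SE 0.43). The epithelial growth factor EPGN had -1.41 (SE 0.56) at levels under 2 CPM in all 10 libraries. VIM, the mesenchymal filament vimentin, had 0.32 (SE 0.19), with 0.71 within RN7SK-low and -0.07 within RN7SK-high libraries. WNT10A, a Wnt ligand, had 0.28 (SE 0.12). Ribosomal proteins of the cytosol had a median of -0.03 over 76 genes. RPL29, at -0.30 (SE 0.11), was at 132 to 198 CPM in RN7SK-low and at 546 to 806 CPM in RN7SK-high libraries.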

How the data were processed

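Per the labels' protocols, total RNA from TRIzol was depleted of ribosomal RNA before directional library preparation. The submitters' processing notes name HISAT2, StringTie and build hg38. No source used here gives the annotation, filters, strand setting or handling of mouse reads. What the authors deposited are whole-number counts per gene, not normalised, in 60656 rows (59609 distinct symbols). Positions came from GENCODE release 29.

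Samples were grouped by the labelled treatment. The members, gene lists, RN7SK threshold and rule for named genes were chosen with earlier results of these data known. Distance shares, agreement across genes and the set of mitochondrial transfer RNAs were added after the data were seen. The DESeq2 runs within the states and for their difference were also not planned beforehand. Nor was the fit without both libraries of highest acinar sum. Counts were normalised by TMM, filtered at a minimum count of 10 and tested with edgeR 4.0.16 (R 4.3.3, robust quasi-likelihood F-test) on all 20 libraries with treatment and the RN7SK-high term, adjusted by Benjamini-Hochberg over 24790 rows. Values within a state come from a fit with the 2 treatments split by state. Single values per library were compared by exact permutation tests, and lists (46 pathway, 12 marker) by counts and medians only. The edgeR test was tested on simulated counts.

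The text names the 12 genes of smallest p in each direction (mean log2 CPM of 0 or more, with a gene symbol). It also names up to 3 members of smallest p per list, the structural RNA RN7SK and mitochondrial messengers. The structural RNAs RPPH1 and RMRP were in the rule as well but are not described. FBXO11, DDX43, PYROXD1 and BACE1 are given because they overlap a named gene. Intervals are unadjusted. Alternatives included other normalisations and filters, DESeq2 1.42.0, limma 3.58.1 (voom), title letter, replicate number, acinar RNA and leaving out each library. The voom run used sample quality weights.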

Additional observations from a re-analysis of the deposited data

Results flagged for a closer look

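A value was marked when 1 library of a group of 5 stood apart from the other 4, with a gap to its nearest neighbour of more than 0.71 of the group's range. Of 188 sets of 5 values examined, 10 were marked (5.32%), and chance marks about 1 in 20. CYP2S1 was at 6.51 CPM in heat-clearing library 2, against at most 4.65 CPM in the others of that group. GPNMB was at 11.03 CPM in blood-activating library 4, where the next value was 4.27 CPM, and MUC6, a gel-forming mucin, was at 8.57 CPM in the same library against 4.59 CPM. HLA-B was at 256 CPM in blood-activating library 1, with 112 CPM next to it. MMP7 was at 4.02 CPM in heat-clearing library 1 and at most 1.38 CPM in the others of its group. In blood-activating library 8, the spindle checkpoint kinase BUB1 was low at 42.0 CPM, against 59.9 CPM or more elsewhere in the group, and NFIL3 was high at 16.6 CPM, against at most 14.1 CPM. MT-CO3, a mitochondrial messenger of the respiratory chain, was low at 7609 CPM in heat-clearing library 1, against 9879 CPM or more in the others of its group. The summed acinar markers were at 424 CPM in heat-clearing library 3 and at 1056 CPM in blood-activating library 6, with next values of 96.3 and 91.2 CPM.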

How the results depend on the processing

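The count of 0 calls between the treatments held with edgeR under every other choice tried: no RN7SK term, the log2 RN7SK share in its place, the 10 libraries alone with and without the term, the RN7SK-low libraries only, RLE and upper-quartile factors, the low-count filter dropped or made stricter (5 libraries at 1 CPM), the title letter, the acinar sum, and leaving out both libraries of highest acinar sum. Leaving out each library in turn gave 0 to 0 calls. With the replicate number as a block there were 0 calls. Only numbers 1 and 9 are shared by the groups, their residuals correlated at -0.20 and -0.015, and they share only a number. DESeq2 called 6 rows (0.0243%), CEMP1, ISY1-RAB43, AC010422.6, AC006064.6, UGT1A9 and ARL2-SNX15, each with counts in 1 or 2 of the 10 libraries and 0 in the rest. Limma voom called 2 rows (0.00807%), OVCA2 and POC1B-GALNT4, outside the rule for names and chosen after their values were seen. OVCA2 had counts only in RN7SK-high libraries, 376 and 60 under heat-clearing and 1745, 1328 and 1443 under blood-activating treatment. POC1B-GALNT4 had 1135 and 854 counts in heat-clearing libraries 1 and 2 and 3 to 192 in the others. DESeq2 called 39 rows within RN7SK-low (0.158%), 16 within RN7SK-high libraries (0.0648%) and 29 for the difference between states (0.117%), where edgeR called 0. Signs were followed for the genes the report describes and all 13 mitochondrial messengers, not for FBXO11, DDX43, PYROXD1 and BACE1. In the RN7SK-low libraries only, MT-ND6 (0.0092), MCM6 (-0.0078) and MT-ATP8 (0.105) changed sign. Without the RN7SK term MT-CYB (0.0620), MT-ND4L (0.0739), MT-CO2 (0.00078) and MT-ATP8 (0.142) did, as they did in the 10 libraries alone without it (0.0685, 0.0832, 0.0092 and 0.148). With the replicate block MT-CYB (0.0233) and MT-ND3 (0.0733) did. List medians moved by more than the spread between libraries for the nuclear respiratory chain (-0.17, RN7SK-low only), TGF-beta and BMP (0.17, replicate block) and the cornified envelope (-0.10, replicate block). The cause of these shifts was not tested. Precision was lowest for rows of low level, where the count of libraries and the depth both limit it.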

Other observations

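The other mitochondrial transfer RNAs were looked at after MT-TT and MT-TP had been seen, and support nothing about them. All 22 had lower estimates under heat-clearing, with a median log2 fold change of -0.81. An unadjusted p under 0.05 was seen in 6 of them, beside 2.2% of all rows. These genes lie on the same polycistronic genome and are not independent observations. The median was -0.40 without the RN7SK term, where 21 were lower. Within RN7SK-low libraries it was -0.40, with 18 lower, and within RN7SK-high libraries -1.25, with 21 lower. MT-TC, for cysteine, and MT-TY, for tyrosine, both on the light strand, had 75.9 ± 33.3 and 65.6 ± 31.5 CPM under heat-clearing and 114 ± 31.6 and 104 ± 34.6 CPM under blood-activating treatment (mean ± SD, n = 5 each). Their RN7SK-high minus RN7SK-low estimates were 0.85 and 1.01 on the log2 scale, and that of MT-TP was -1.72.

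Human markers of other cells gave low sums in both groups. Counts are of human genes on build hg38, and the handling of mouse reads is not given. Such sums therefore do not measure how many cells of a mouse host a sample held. The same limit holds for the acinar and myeloid sums. Fibroblast markers summed to 44.6 to 104 CPM under heat-clearing and 47.5 to 107 CPM under blood-activating treatment, and endothelial markers to 15.1 to 18.2 and 13.6 to 30.1 CPM. Of the 12 endothelial markers 7, and of the 13 lymphoid markers 10, stayed under 1 CPM in all 10 libraries. Hepatocyte markers summed to 103 CPM in blood-activating library 1 and to 9.59 to 22.3 CPM in the other 9.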
